A study of Mus musculus with 23 samples.

Results

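Arginase and polyamine metabolism was followed here through 8 genes in mouse endometrium: Ass1, Arg1, Arg2, Odc1, Amd1, Srm, Sms and Sat1. They were taken by name from the 18682 features of the count table, and all 8 passed the filter on low counts that left 17708 features for testing. The set was proposed because Arg1 was selected on its spread over the libraries in these same data, so the spans given below are descriptions and carry no test. A question was attached to it, whether Arg1 follows Lyz2, a macrophage gene, or Krt8, a keratin of epithelial cells. The horn in which each value was measured is named by its group and its replicate number, as in SHAM 3.

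RNA came from the endometrium of 23 uterine horns of female C57BL/6 mice, pressed out of each horn by hand, and each horn gave 1 poly(A) library. There were 6 horns labelled SHAM, 5 labelled PBS, 6 labelled HG and 6 labelled HG+ORG. The last 3 groups had been damaged with ethanol and were injected 4 days later with saline (PBS), with a hydrogel derived from endometrium (HG), or with that hydrogel and human endometrial organoids (HG+ORG). Tissue was taken 2 weeks after the injection. These 17 horns are called injured below, and the labels do not say what was done to the SHAM horns. The mice were immunocompetent according to the study's title, and no source used here says how reads of human cells were handled in the HG+ORG horns. The labels do not say which horns came from the same animal, so the p-values measure the spread between these horns, some of which may share a mouse.

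Arginine and the polyamines are linked by a short chain of enzymes. Ass1, argininosuccinate synthase, makes the precursor of arginine from citrulline and aspartate. The arginases cut arginine into ornithine and urea, Arg1 in the cytosol and Arg2 in mitochondria. Odc1, ornithine decarboxylase, turns ornithine into putrescine and is short-lived and tightly regulated. Amd1 makes decarboxylated S-adenosylmethionine, from which Srm (spermidine synthase) and Sms (spermine synthase) transfer an aminopropyl group to putrescine and to spermidine. Sat1, spermidine/spermine acetyltransferase, starts the breakdown and export of polyamines. In the rodent uterus Odc1 is known for its role in growth and decidualization, and Arg1 is widely used as a marker of alternatively activated macrophages, although other cells make it too.

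Total counts per library ran from 7920918 to 14902952, with a median of 12701407, so each member had at least 12 counts in every library. SHAM 5 and SHAM 6 were the closest pair of replicates: the chi-square of their counts, divided by its degrees of freedom, was 2.76, against 16.5 for the next closest pair and a median of 114 over the 55 pairs within groups. They differed beyond sampling noise, which does not show that they came from different animals, and they were kept as 2 horns. Each r within SHAM below counts both among its 6 horns, so it may rest on fewer independent points. HG+ORG 18 stood apart in its macrophage genes, with Lyz2 at 13.89 log2 CPM (counts scaled to library size), and in its epithelial genes, with Krt8 at 7.12. SHAM 3 and HG+ORG 21 stood apart in cell cycle genes: the 12 genes of that list summed to 113.9 CPM in SHAM 3 and to 118.6 CPM in HG+ORG 21, and to between 662.2 and 3334 CPM in the other 21 horns. Where leaving out these libraries changed a relation across horns, the values without them are given beside it. The 15 general epithelial markers were all detected and summed to between 1227 CPM, in HG+ORG 18, and 20550 CPM, in SHAM 3.

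The upstream sequence of 3 members is shown because Ass1 and Sat1 turned out to vary with Arg1 over the horns, as described below, while Odc1 did not. Each run holds the 250 bases before the gene's start, 5′ to 3′ on the strand of the gene, from RefSeq on build GRCm38.p6, which is not the build GRCm39 of the counts. The windows lie at chr2:31470020-31470269 on the + strand for Ass1, chr12:17544623-17544872 on the + strand for Odc1 and chrX:155216450-155216699 on the - strand for Sat1. Capitals mark matches, on either strand, to an E-box (CACGTG) or a GC box (GGGCGG).
Ass1: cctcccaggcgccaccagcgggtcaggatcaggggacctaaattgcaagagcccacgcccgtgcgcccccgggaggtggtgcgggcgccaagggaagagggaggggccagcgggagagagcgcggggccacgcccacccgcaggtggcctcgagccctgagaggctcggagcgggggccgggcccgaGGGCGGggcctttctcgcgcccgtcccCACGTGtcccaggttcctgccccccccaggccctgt
Odc1: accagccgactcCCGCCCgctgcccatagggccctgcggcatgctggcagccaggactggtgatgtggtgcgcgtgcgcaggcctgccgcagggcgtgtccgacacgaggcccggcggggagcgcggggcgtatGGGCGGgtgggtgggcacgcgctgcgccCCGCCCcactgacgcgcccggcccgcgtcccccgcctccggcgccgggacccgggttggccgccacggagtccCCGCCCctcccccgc
Sat1: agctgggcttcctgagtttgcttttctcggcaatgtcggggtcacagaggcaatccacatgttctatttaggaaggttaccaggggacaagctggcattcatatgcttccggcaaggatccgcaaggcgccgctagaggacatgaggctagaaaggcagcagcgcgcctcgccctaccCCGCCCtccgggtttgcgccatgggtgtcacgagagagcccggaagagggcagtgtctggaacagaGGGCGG
The Ass1 window held 1 E-box and 1 GC box, the Odc1 window 4 GC boxes and the Sat1 window 2 GC boxes. A GC box stood in 32.7% and an E-box in 6.0% of all 32841 RefSeq promoter windows cut to the same length, so GC boxes are frequent. No match to a TATA box (TATAAA, in 12.4% of windows) or to the STAT motif TTCNNNNGAA (in 5.9%) was in any of the 3 windows. The motifs do not overlap one another in these windows, and a match is a description of letters and not a binding site. Windows were found for 5 of the 8 members: Amd1 and Sms were the others, and Arg1, Arg2 and Srm had no entry.

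Ass1, which supplies arginine, had the second widest range of the set. In SHAM its level ran from 3.30 to 7.40 log2 CPM with a median of 4.60. The 5 PBS horns lay at 3.63 (PBS 7), 1.90 (PBS 8), 4.27 (PBS 9), 5.83 (PBS 10) and 4.93 (PBS 11). HG horns ran from 0.91 to 6.71 with a median of 4.23. HG+ORG horns ran from 2.88 to 6.03 with a median of 4.32. The 4 groups overlapped widely, SHAM 4 was highest and HG 14 lowest, and 4.10% of the variance of Ass1 over the 23 horns lay between groups.

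Arg1 had the widest range, from 0.026 log2 CPM in HG 14 to 12.15 in SHAM 3. That span of 12.12 on the log2 scale is a ratio of 4455, from 0.860 to 4536 CPM, and exceeded the span of 99.87% of all features tested, whose median span was 2.30. In SHAM, Arg1 was 7.13 (SHAM 1), 6.62 (SHAM 2), 12.15 (SHAM 3), 7.98 (SHAM 4), 4.25 (SHAM 5) and 4.83 (SHAM 6). In PBS it was 5.48, 0.93, 5.67, 5.56 and 7.93 in PBS 7 to PBS 11. In HG it was 7.54, 7.23, 0.026, 5.88, 7.50 and 3.49 in HG 12 to HG 17. In HG+ORG it was 9.73, 7.58, 2.91, 11.81, 1.50 and 6.00 in HG+ORG 18 to HG+ORG 23. Very high and very low horns stood side by side in the same group, and 8.29% of the variance of Arg1 lay between groups, against a median of 12.1% over all features.

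Arg2, the mitochondrial arginase, was lower and less variable. Its level ran from 1.32 to 3.66 log2 CPM in SHAM with a median of 3.16, and the PBS horns lay at 3.09, 4.16, 3.04, 3.18 and 2.65 in PBS 7 to PBS 11. In HG it ran from 0.98 to 4.33 with a median of 3.27, and in HG+ORG from 2.81 to 5.87 with a median of 4.04. HG+ORG 18, the horn with the highest macrophage genes, was also the highest for Arg2. Per kilobase of exon, Arg1 exceeded Arg2 in 17 of the 23 horns and lay below it in 6, which were SHAM 5, PBS 8, HG 14, HG 17, HG+ORG 20 and HG+ORG 22. The median level was 28.6 CPM per kb for Arg1 and 6.25 for Arg2, and the range of Arg1 was 0.386 to 2036 CPM per kb.

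The 4 enzymes that build polyamines varied far less. Odc1 lay between 5.08 and 7.02 log2 CPM in all 23 horns, with a mean of 6.33 ± 0.61 (SD, n = 6) for SHAM horns, 6.21 ± 0.36 (SD, n = 5) for PBS horns, 6.22 ± 0.46 (SD, n = 6) for HG horns and 6.27 ± 0.57 (SD, n = 6) for HG+ORG horns. Its lowest horns were SHAM 3 at 5.08, HG+ORG 21 at 5.29, HG 14 at 5.38 and PBS 8 at 5.62, 1 in each group. Between-group variance was 0.923% of the total for Odc1.

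Amd1 was the member in which a pair of groups separated. SHAM horns ran from 5.09 to 5.64 log2 CPM with a median of 5.29, and the PBS horns lay at 4.88, 4.81, 5.03, 4.66 and 4.64 in PBS 7 to PBS 11. All 5 PBS horns thus lay below all 6 SHAM horns. HG horns ran from 4.66 to 5.79 with a median of 4.86, and HG+ORG horns from 4.29 to 5.51 with a median of 4.59, both overlapping SHAM and PBS. Amd2, a near-identical copy of Amd1, had 5 to 19 counts per library against 174 to 683 for Amd1, and reads of the pair may be split between them.

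Srm was highest in HG+ORG 18 at 6.66 and HG 17 at 6.59 log2 CPM and lowest in PBS 8 at 4.15. Its mean was 5.20 ± 0.58 (SD, n = 6) for SHAM horns, 4.95 ± 0.56 (SD, n = 5) for PBS horns, 5.82 ± 0.73 (SD, n = 6) for HG horns and 5.20 ± 0.79 (SD, n = 6) for HG+ORG horns. Sms had the narrowest range of the 8 genes, 1.22 on the log2 scale, with means of 4.84 ± 0.30 (n = 6), 4.69 ± 0.12 (n = 5), 4.87 ± 0.41 (n = 6) and 5.03 ± 0.24 (n = 6) in the same order. In both genes every group overlapped every other.

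Sat1 was the most abundant member per length, with a median of 99.8 CPM per kb of exon. In 21 horns its level lay between 7.51 and 9.38 log2 CPM. In the remaining horns, SHAM 3 and HG+ORG 21, it reached 11.30 and 11.34, or 2530 and 2598 CPM. These are also the horns with the highest Arg1, and they belong to different groups. Group medians were 8.20 in SHAM, 7.99 in PBS, 8.29 in HG and 8.36 in HG+ORG.

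**Figure D1:**
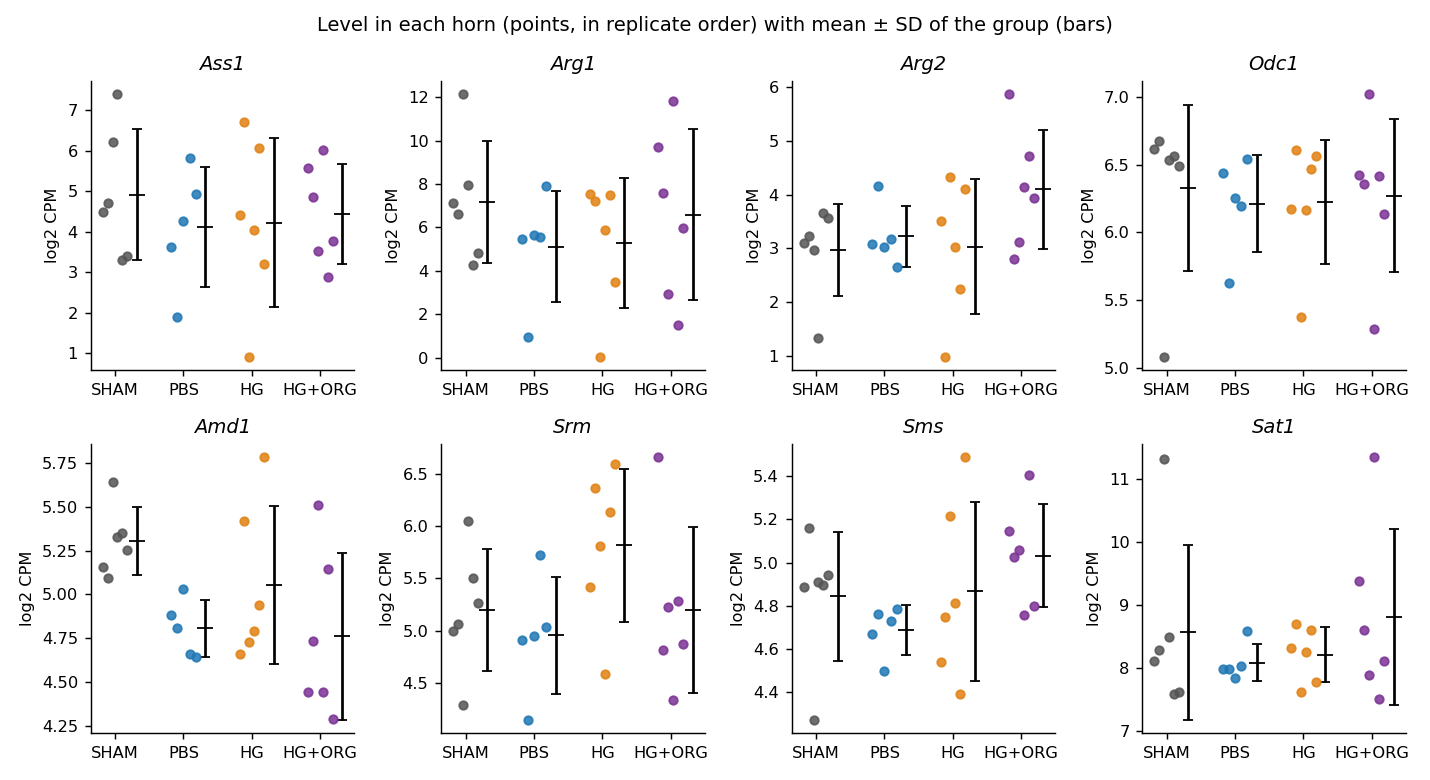
Level of each member in log2 CPM (vertical axes, 1 panel per gene) in the SHAM, PBS, HG and HG+ORG horns. Points are horns in replicate order and the bars are the mean ± SD of the group. Arg1 spans 0.026 to 12.15 with all groups overlapping, and in Amd1 the 5 PBS horns lie below the 6 SHAM horns.

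**Figure D2:**
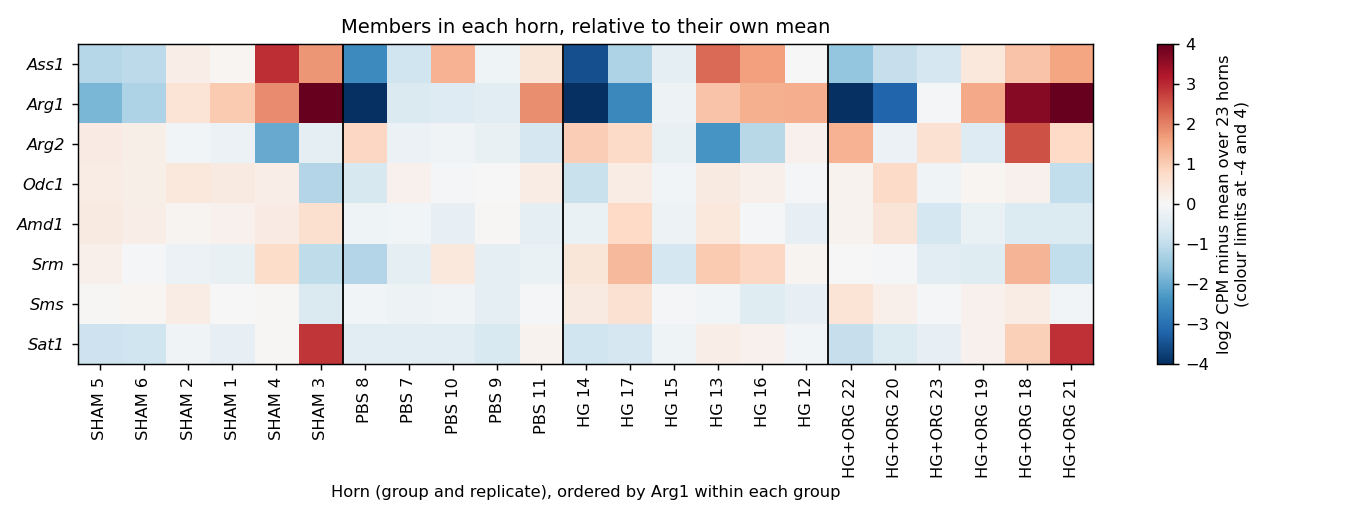
Level of the 8 members (rows) in each of 23 horns (columns, ordered by Arg1 within each group), as log2 CPM minus the gene's mean over all horns, with the ends of the colour scale clipped. Sat1 is highest in SHAM 3 and HG+ORG 21, the horns where Arg1 is also highest.

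Comparing PBS with SHAM asks what ethanol damage and the saline injection left behind, and any difference in how the SHAM horns were handled enters it too. Comparing HG and HG+ORG with PBS asks what each treatment changed, and comparing HG+ORG with HG asks what the organoids added. Each of these comparisons shares the horns of a group with others, so they are not independent. No member passed in any of these comparisons, nor between all 17 injured horns and SHAM (edgeR quasi-likelihood test, adjusted p under 0.05 over 17708 features). The background was the same, since 0% of all features passed in each of the 5 comparisons. DESeq2 called 1 feature in PBS against SHAM, 163 in HG+ORG against HG and 5 in injured horns against SHAM, none of them a member, and 0 in the other comparisons. limma-voom called 0 features in all 5. At an unadjusted edgeR p under 0.05, 2.17% of features passed in PBS against SHAM, 3.37% in HG against PBS, 6.09% in HG+ORG against PBS, 9.81% in HG+ORG against HG and 7.58% in injured horns against SHAM.

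Of the 8 members, 1 had a fold above 0 in PBS against SHAM, with a median of -0.38, and 8 did in HG against PBS and in HG+ORG against PBS, with medians of 0.27 and 0.37. It was 5 in HG+ORG against HG, with a median of 0.10, and 3 in injured horns against SHAM, with a median of -0.26. Over all features 53.0% to 55.7% of folds were above 0, with medians from 0.024 to 0.045.

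In Amd1 PBS minus SHAM was a log2 fold of -0.50 (SE 0.23, unadjusted p = 0.0364, adjusted p = 0.9995 in edgeR). Groups that do not overlap, as here, were found in 0.294% of features. The value was -0.40 (SE 0.17) in all injured horns against SHAM, with an unadjusted p of 0.0313 and an adjusted p of 0.64 in edgeR. Without SHAM 3 these values were -0.43 and -0.32. For Srm the log2 fold in HG against PBS was 0.92 (SE 0.40), with an unadjusted p of 0.0336 and an adjusted p of 0.99 in edgeR. No other member had an unadjusted p under 0.05 in any comparison. The pair of groups overlapped for every member in HG against PBS, HG+ORG against PBS, HG+ORG against HG and injured against SHAM, where 0.152%, 0.107%, 0.181% and 0% of features had groups that did not overlap.

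Arg1 had the largest standard error of the 8 members in each comparison and, except in HG against PBS, the largest fitted fold. Its log2 fold was -3.45 (SE 1.73) in PBS against SHAM, 0.34 (SE 1.54) in HG against PBS, 3.34 (SE 1.72) in HG+ORG against PBS, 3.00 (SE 1.57) in HG+ORG against HG and -2.22 (SE 1.11) in injured horns against SHAM. None passed in edgeR, with adjusted p-values from 0.58 to 0.9995. Single horns set the size of these folds. Without SHAM 3 the fold in PBS against SHAM was -0.49 and that in injured horns against SHAM was 0.75, of the opposite sign. Without HG+ORG 21 the fold in HG+ORG against HG was 1.20 and that in HG+ORG against PBS was 1.55. For Sat1 the same horns mattered: its fold in PBS against SHAM was -1.22 (SE 0.70) with all horns and 0.035 without SHAM 3, and in HG+ORG against HG it was 1.24 (SE 0.66) with all horns and 0.19 without HG+ORG 21.

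Arg2 had folds of 1.17 (SE 0.57) in HG+ORG against PBS and 1.08 (SE 0.54) in HG+ORG against HG, with adjusted p-values of 0.82 and 0.53 in edgeR. Without HG+ORG 18 these folds were 0.60 and 0.49. In the same comparisons 14 of 14 macrophage and monocyte markers had folds above 0, with medians of 2.73 and 2.25, while the median over all features was 0.045 and 0.044. The 9 neutrophil markers had medians of 4.03 and 4.47, the 10 smooth muscle markers -1.61 and -2.89, and the 8 adipocyte markers -2.11 and -6.02. None of the markers of these 4 lists passed in edgeR. The summed level of the macrophage markers was 298.5 to 25340 CPM in HG+ORG, 448.3 to 1175 CPM in HG and 209.8 to 987.1 CPM in PBS, and that of the neutrophil markers was 13.72 to 8131 CPM, 25.37 to 97.39 CPM and 9.361 to 214.5 CPM in the same groups. Both were highest in HG+ORG 18, and the next HG+ORG horn for neutrophil markers, HG+ORG 19, held 438.9 CPM. The median neutrophil sum was 54.58 CPM in HG+ORG, 64.63 CPM in HG and 70.96 CPM in PBS, so the large neutrophil folds were not a rise of the median horn. The median macrophage sum was 906.6, 669.3 and 442.7 CPM in the same order. Smooth muscle markers summed to 27.08 to 511.7 CPM in HG+ORG, 85.29 to 3368 CPM in HG and 26.38 to 1611 CPM in PBS, and adipocyte markers to 24.54 to 657.8, 22.29 to 13420 and 33.05 to 1014 CPM. Their medians were 80.99, 812.0 and 91.71 CPM for smooth muscle and 105.7, 157.0 and 59.48 CPM for adipocytes. The adipocyte value of 13420 CPM was that of HG 12, and the next HG horn, HG 13, held 1380 CPM. No marker of these lists was at 0 throughout a group, and their part in the Arg2 values was not tested. In bulk tissue fewer cells of a type and less RNA per cell cannot be told apart.

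**Figure D3:**
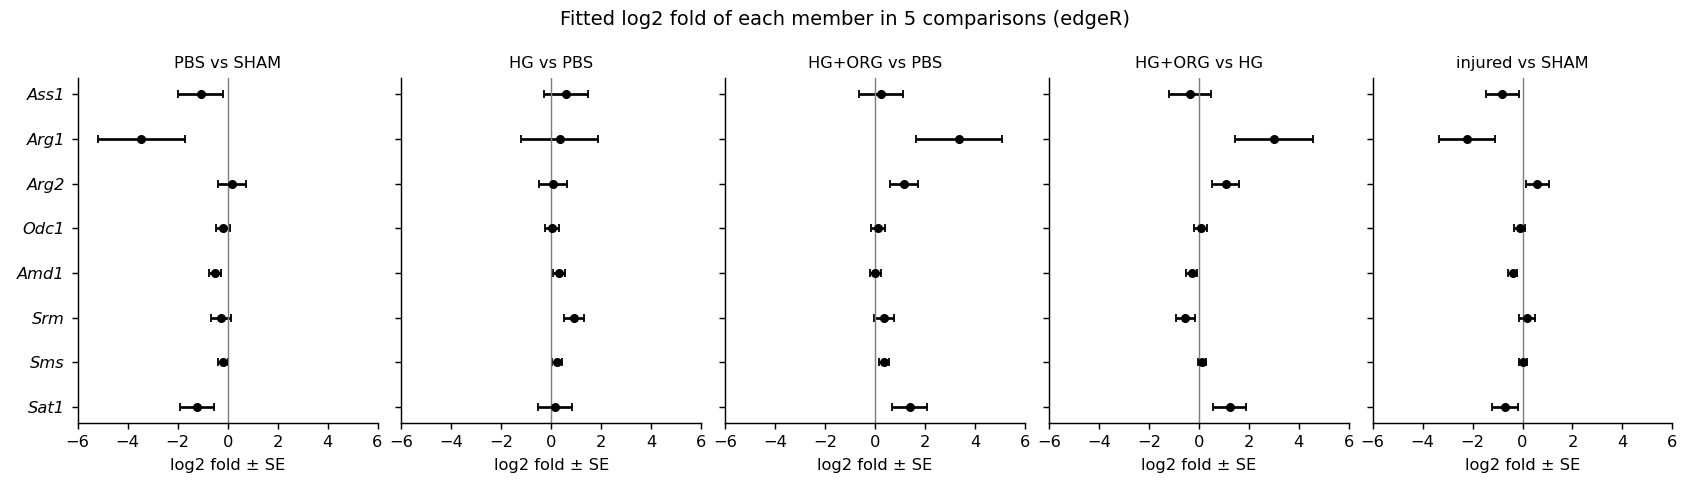
Fitted log2 fold with its standard error (horizontal axis) of each member (rows) in the 5 comparisons (panels). Arg1 runs from -3.45 to 3.34 with standard errors above 1.1, and no member passed the adjusted threshold.

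Of 56 further genes of the pathway lists, 49 were tested and 0 passed in any comparison in edgeR. At an unadjusted p under 0.05, 2 were higher in PBS against SHAM and 2 in HG against PBS. In HG+ORG against PBS 3 were higher and 1 lower, and in HG+ORG against HG 4 were higher and 1 lower. In injured horns against SHAM 4 were higher and 2 lower. Over all features 2.17%, 3.37%, 6.09%, 9.81% and 7.58% were below 0.05 in these comparisons, in the same order. Nos2, the inducible nitric oxide synthase that competes with arginase for arginine, was among the listed genes below 0.05 in both HG+ORG comparisons. Its folds were 3.49 (SE 1.38) against PBS and 2.55 (SE 1.22) against HG, with adjusted p-values of 0.75 and 0.51 in edgeR. Smox, spermine oxidase, had folds of 1.22 (SE 0.45) and 1.17 (SE 0.43) in the same comparisons, with adjusted p-values of 0.72 and 0.33 in edgeR. Cebpb, a transcription factor known to act on Arg1, had folds of 2.04 (SE 0.78) and 1.53 (SE 0.72). Its adjusted p-values were 0.72 and 0.50 in edgeR. Slc18b1, a polyamine transporter of vesicles, had folds of -0.54 (SE 0.25) and -0.64 (SE 0.24), with adjusted p-values of 0.81 and 0.34 in edgeR. Slc7a2, an arginine transporter, had a fold of 2.61 (SE 1.17) in PBS against SHAM and 3.22 (SE 1.08) in injured horns against SHAM. Ddah2, which breaks down methylarginines, had folds of 0.96 (SE 0.38) and 0.98 (SE 0.31) there. The other genes higher in injured horns against SHAM were Sat2, with a fold of 1.30 (SE 0.41), and Ddah1, with 1.90 (SE 0.81). Those lower were Atp13a3, with a fold of -0.30 (SE 0.14), and Il13ra1, with -0.78 (SE 0.35). Each gene named for injured horns against SHAM had an adjusted p of 0.64 in edgeR. For Slc7a2 and Ddah2 in PBS against SHAM the adjusted p was 0.9995 in edgeR.

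Because the horns differed more within groups than between them, the members were set against each other and against marker genes over the 23 horns. Pearson's r and Spearman's rho were taken on log2 CPM, with two-sided permutation p-values from 100000 resamples, adjusted over the 17707 other features for each member. In all, 16 relations of a member with Lyz2 or Krt8 and 28 pairs of members were computed. A passing r is common in these data: 28.4% of features passed with Arg1 (13% with r above 0 and 15.4% below), 25.2% with Ass1, 26.7% with Sat1, 29% with Srm, 12.4% with Odc1, 6.07% with Arg2 and 0% with Amd1 and with Sms. The points share their library, its depth and its composition.

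Over the 23 horns the relation of Arg1 with Lyz2 did not pass. Lyz2, lysozyme of macrophages and neutrophils, gave r = 0.212 and rho = 0.139 with Arg1 (permutation p = 0.329 and 0.522, adjusted p = 0.48 for r). Without HG+ORG 18 and HG+ORG 21, the horns farthest from the median of Lyz2, r was -0.167. It was 0.338 without SHAM 3 and HG+ORG 21 and 0.044 without HG+ORG 18 alone. SHAM 3, with the highest Arg1, had Lyz2 at 4.06, near the lowest value of 3.93 in SHAM 4. Within groups r was -0.806 over 6 SHAM horns, 0.116 over 6 HG horns and 0.648 over 6 HG+ORG horns, and PBS with 5 horns was too small. After each group's mean was subtracted, r was 0.325.

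Krt8, a keratin of simple epithelia, gave r = 0.171 and rho = 0.399 with Arg1 over the 23 horns (permutation p = 0.428 and 0.0619, adjusted p = 0.58 for r). The value rested on single horns in both directions. It was 0.618 without HG+ORG 18 (adjusted p = 0.0125) and 0.499 without HG 14 and HG+ORG 18, the horns farthest from the median of Krt8. It was -0.075 without SHAM 3 and HG+ORG 21. Within groups r was 0.825 in SHAM, 0.941 in HG and -0.140 in HG+ORG, with 6 horns each, and 0.136 after group means were subtracted. So over all 23 horns neither relation passed, and with each horn left out in turn that with Krt8 passed only without HG+ORG 18 and that with Lyz2 never.

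Sat1 and Ass1 did vary with Arg1, from opposite ends of the pathway. Arg1 and Sat1 gave r = 0.827 and rho = 0.912 (permutation p = 1e-05 for both, the smallest that 100000 resamples give, adjusted p = 0.000329 for r). With SHAM 3 and HG+ORG 21 left out, which stand apart in Sat1, r was 0.810. Within groups it was 0.960 in SHAM, 0.917 in HG and 0.913 in HG+ORG. Arg1 and Ass1 gave r = 0.833 and rho = 0.876 (permutation p = 1e-05 for both, adjusted p = 0.000329 for r), and 0.828 without SHAM 4 and HG 14. Within groups it was 0.742 in SHAM, 0.912 in HG and 0.978 in HG+ORG. HG 14, PBS 8 and HG+ORG 22, the 3 horns with the lowest Arg1, were also the 3 with the lowest Ass1. Sat1 and Ass1 gave r = 0.595 and rho = 0.853 with each other, and 0.707 without SHAM 3 and HG+ORG 21.

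**Figure D4:**
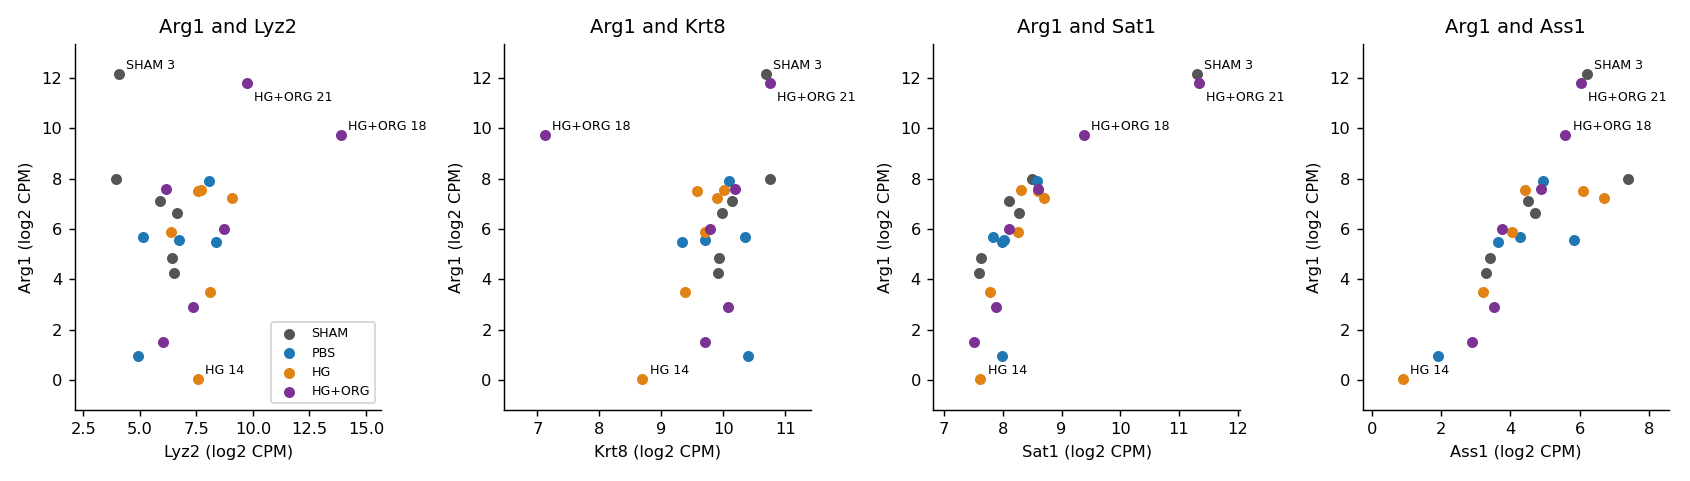
Arg1 (vertical axes) against Lyz2, Krt8, Sat1 and Ass1 (horizontal axes), all in log2 CPM, with 1 point per horn coloured by group and 4 horns named. HG+ORG 18 combines the highest Lyz2 with the lowest Krt8, while Sat1 and Ass1 rise with Arg1 (r = 0.827 and 0.833).

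No other member had a passing r above 0 with Arg1. Arg2 gave r = -0.242 (adjusted p = 0.42), Odc1 -0.184 (0.55), Amd1 -0.148 (0.64) and Srm -0.095 (0.78) over the 23 horns, by permutation. Sms and Arg1 gave r = -0.508 and rho = -0.390, with adjusted permutation p-values of 0.0471 and 0.17 among all features against Arg1. Among all features against Sms they were 0.21 and 0.52, so this relation passed from 1 side only. Without HG 17 and HG+ORG 22, the horns farthest from the median of Sms, that r was -0.391. Arg2 and Ass1 gave r = -0.547 and rho = -0.634, with adjusted permutation p-values of 0.0330 and 0.0113 among all features against Ass1. Among all features against Arg2 they were 0.0754 and 0.0461. Without SHAM 4 and HG 14 that r was -0.412. Sat1 and Odc1 gave r = -0.581 (adjusted permutation p = 0.0369 against Sat1 and 0.0615 against Odc1), but rho was -0.178, and without SHAM 3 and HG+ORG 21 r was 0.183, so this relation rests on those horns.

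Against the same markers, Srm was the only member whose r with Krt8 or Lyz2 passed over the 23 horns. Srm and Krt8 gave r = -0.591 and rho = -0.569 (permutation, adjusted p = 0.0103 and 0.0339), and -0.449 without HG 14 and HG+ORG 18. Within groups that r was -0.038 in SHAM, -0.180 in HG and -0.969 in HG+ORG. A passing r was common for Srm, at 29% of all features. Srm passed above 0 with 10 of 11 genes of endometrial stroma, 9 of 9 of endothelium and 8 of 10 of smooth muscle. Below 0 it passed with 10 of 15 general epithelial genes. Arg2 and Krt8 gave r = -0.564 (permutation, adjusted p = 0.0849), which was -0.159 without HG 14 and HG+ORG 18.

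Marker lists showed which genes varied with Arg1. Of 14 macrophage and monocyte genes, 13 had r above 0 with Arg1, the median was 0.198 and 3 passed, against a median of -0.0095 over all features. The 3 were Itgam, the CD11b integrin chain of myeloid cells (r = 0.928), Cd68, a lysosomal glycoprotein (0.862), and Cd14, an endotoxin co-receptor (0.603). Adgre1, Csf1r, C1qa, C1qb and C1qc, which define tissue macrophages, gave r between 0.137 and 0.268, and none of these passed. Itgam and Cd68 gave 0.911 and 0.810 without SHAM 3 and HG+ORG 21, and 0.929 and 0.931 without HG+ORG 18, and passed in both cases. Cd14 passed at 0.598 without HG+ORG 18 and did not pass at 0.468 without SHAM 3 and HG+ORG 21. The median of the 14 genes was 0.400 without SHAM 3 and HG+ORG 21, with 2 passing, and 0.035 without HG+ORG 18, with 3 passing. Over all features 7.98% passed above 0 and 9.54% below in the first case, and 14.8% above and 15.9% below in the second. In SHAM 3 Itgam was 7.64 log2 CPM and Lyz2 4.06, while in HG+ORG 18 they were 8.18 and 13.89. Of 10 genes of alternatively activated macrophages 10 had r above 0 with Arg1, with a median of 0.366, and 1 passed, Il10 (r = 0.696). Mrc1, Retnla and Chil3 of that list gave 0.358, 0.436 and 0.473 and did not pass. The median of this list was 0.476 without SHAM 3 and HG+ORG 21, with 2 passing, and 0.293 without HG+ORG 18, with 1 passing. Neutrophil genes gave a median of 0.217, with 0 of 9 passing. It was 0.501 without SHAM 3 and HG+ORG 21, with 3 passing, and 0.085 without HG+ORG 18, with 1 passing. Hepatocytes, which make Arg1 for the urea cycle, were covered by 2 of 7 listed genes, Alb and Ttr, with r of 0.217 and -0.015.

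Of 15 general epithelial genes 9 had r above 0 with Arg1, the median was 0.188 and 1 passed, Elf3 (r = 0.607), an epithelial transcription factor, which gave 0.389 and did not pass without SHAM 3 and HG+ORG 21. Without HG+ORG 18, 14 of 15 had r above 0 and 9 passed, and without SHAM 3 and HG+ORG 21, 6 of 15 had r above 0, 0 passed above 0 and 2 passed below. Genes that estrogen is known to induce in uterine epithelium were more uniform. All 14 had r above 0 with Arg1, with a median of 0.626, and 12 passed. Among them were Sprr2f (0.801), a small proline-rich protein, Lcn2 (0.795), a siderophore-binding lipocalin, C3 (0.778), a complement protein, and Ltf (0.569), lactotransferrin. With SHAM 3 and HG+ORG 21 left out, 13 of 14 had r above 0, the median was 0.520 and 6 passed. Without HG+ORG 18, 14 of 14 had r above 0 and 13 passed. The summed level of these genes was 99990 CPM in SHAM 3 and 89760 CPM in HG+ORG 21, and 355.2 CPM in HG 14, the horn with the lowest Arg1. Over groups it ran from 9417 to 99990 CPM in SHAM, 3677 to 45820 in PBS, 355.2 to 38220 in HG and 1768 to 89760 in HG+ORG. None of the 14 was at 0 throughout a group. Their part in the variation of Arg1 was not tested. Mitochondrially encoded genes also leaned one way, since 9 of 9 had r above 0 with Arg1, with a median of 0.480, and 4 passed. With SHAM 3 and HG+ORG 21 left out 2 passed, and 9 of 9 had r above 0. Their share of counts was 1.50% to 11.4% over the libraries, 4.13% in SHAM 3, 5.45% in HG+ORG 21 and 2.57% in HG 14, and its part was not tested either. The lists for other cells included 11 genes of endometrial stroma, 10 of smooth muscle, 9 of endothelium and 8 of T and NK cells. In these lists 0 genes passed above 0. Below 0, Nr2f2 of stroma (-0.555), Synpo2 of smooth muscle (-0.509) and Klrb1c of T and NK cells (-0.554) passed. Without HG+ORG 18, 0 genes of stroma and smooth muscle passed below 0, and 1 of T and NK cells did. Of 5 genes of uterine glands 1 had r above 0, with a median of -0.36: Sox9 passed at 0.701 and Cxcl15 below 0 at -0.666. Of 6 squamous epithelial genes 1 had r above 0, with a median of -0.34, and Trp63 passed at -0.696. With SHAM 3 and HG+ORG 21 left out, Cxcl15 passed at -0.667, while Sox9 and Trp63 did not pass.

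All 12 cell cycle genes had r below 0 with Arg1, with a median of -0.623, and 11 passed. Without SHAM 3 and HG+ORG 21 the median was -0.260 and 0 passed, where 9.54% of all features passed below 0. For Sat1 the median was -0.852 and 12 of 12 passed below 0, where 15.1% of features passed below 0 and 11.7% above. Without the same horns it was -0.404 and 2 passed, where 11.3% of all features passed below 0. Odc1 ran the other way, as 12 of 12 cell cycle genes passed above 0 with a median r of 0.776, where 7.48% of features passed above 0 and 4.88% below. Without SHAM 3 and HG+ORG 21 its median was 0.494, with 12 of 12 above 0 and 0 passing, where 0.825% of all features passed above 0.

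**Figure D5:**
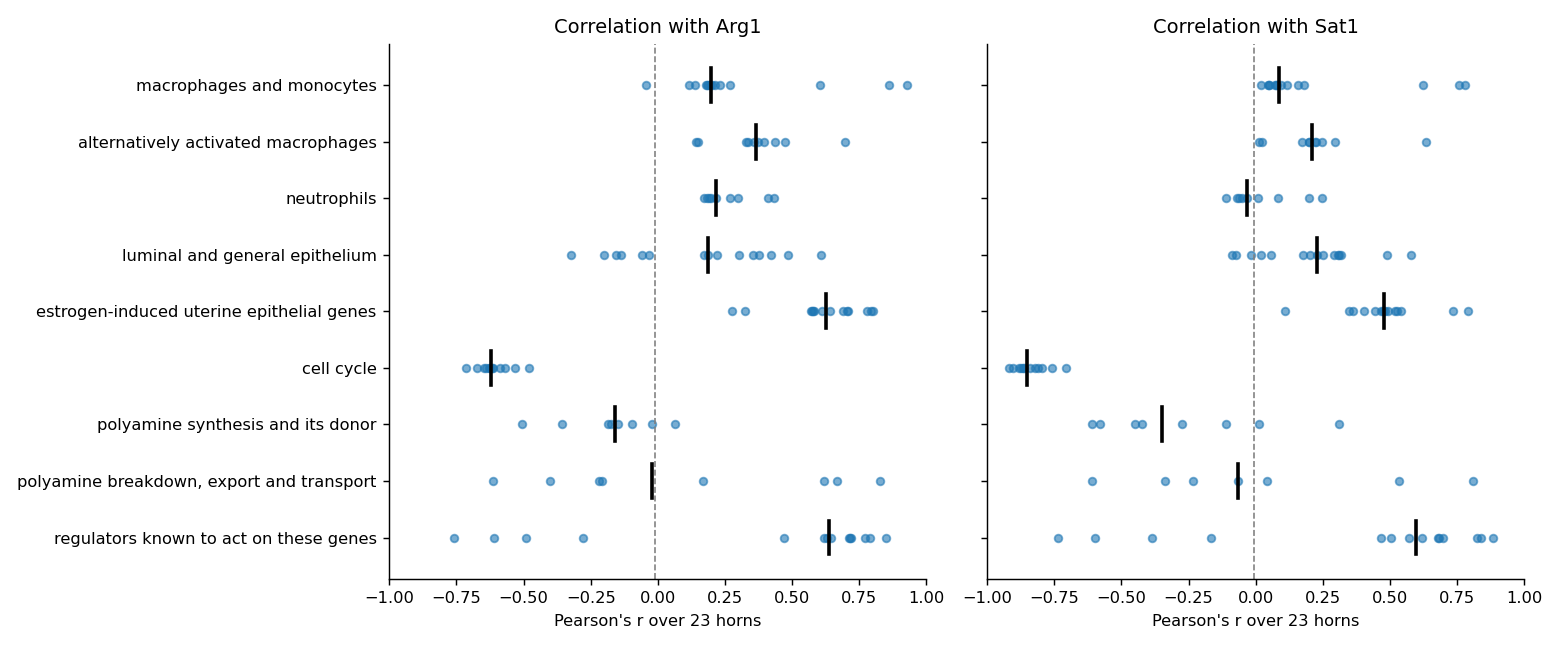
Pearson's r over 23 horns with Arg1 (left) and Sat1 (right) of each gene of 9 lists (rows). Points are genes, black bars are list medians and the dashed line is the median of all features. With Arg1 the estrogen-induced list has its median at 0.626 and the cell cycle list at -0.623.

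Some genes of the pathway lists passed with Arg1 above 0 and some below, as features in general did. Over all features 13% passed above 0 and 15.4% below. Oat, ornithine aminotransferase, which carries ornithine towards glutamate and proline, gave r = 0.708. Smox and Paox, the oxidases of polyamine breakdown, gave 0.669 and 0.619, Azin2, an antizyme inhibitor, 0.598, and Nos2 0.544, and all of these passed. Prodh, proline dehydrogenase, gave -0.582, Azin1 -0.570, Ddah2 -0.608 and Slc18b1 -0.613, and these passed below 0. Most of these calls rest on 2 horns. With SHAM 3 and HG+ORG 21 left out, r was 0.538 for Oat, 0.447 for Smox, 0.434 for Paox, 0.403 for Azin2, 0.299 for Nos2, -0.426 for Prodh, -0.439 for Ddah2 and -0.475 for Slc18b1, and none of these passed, while Azin1 passed at -0.657. Nos2 also lost its call without HG+ORG 18, at 0.499, and the other 8 kept theirs. Among 7 genes of the list from ornithine to proline and glutamate, Pycrl also passed below 0 over all horns, at -0.6095. That list thus had 1 gene passing above 0 and 2 below, and 0 of either without SHAM 3 and HG+ORG 21. Dohh and Eif5a2, of a list of 4 genes around eIF5A, passed at 0.666 and -0.664 over all horns. Without SHAM 3 and HG+ORG 21 their list had 1 gene passing above 0 and 0 below. Of 14 regulators known to act on these genes, 9 passed above 0 and 2 below, where 13% and 15.4% of all features did. Their median r was 0.638. Without SHAM 3 and HG+ORG 21, 6 passed above 0 and 2 below, where 7.98% and 9.54% of all features did. Stat6, the factor downstream of interleukin 4 receptors, gave 0.850, Il13ra1 0.771 and Il4ra, its receptor chain, 0.714. Cebpb (0.791), Ppard (0.712), Pparg (0.646), Max (0.631) and Mycn (0.620) also passed above 0. Hif1a, on the same list, passed below 0 at -0.611. Nfe2l2, a factor of the oxidative stress response, gave 0.720 with Arg1 and 0.839 with Sat1, a gene it is known to act on. Pgr, the progesterone receptor, gave -0.758 with Arg1 and -0.737 with Sat1, and it was lowest in HG+ORG 18 at 2.58 log2 CPM. Without that horn its r was -0.847 with Arg1 and -0.862 with Sat1. Without SHAM 3 and HG+ORG 21 the r of Nfe2l2 with Arg1 was 0.534 and did not pass, and that with Sat1 was 0.748 and passed. The part of the myeloid and estrogen-induced genes above in these relations was not tested.

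The features nearest to Arg1 by r over the 23 horns were Zc3h12a (0.942), an RNase that degrades inflammatory transcripts, Egln3 (0.931), an oxygen-dependent prolyl hydroxylase, Ppm1j (0.931), a phosphatase, Tnip3 (0.929), Itgam (0.928) and Ly96 (0.926), a partner of the endotoxin receptor. At the other end were Psip1 (-0.946), a chromatin protein, Gstm2 (-0.944), a glutathione transferase, Pard3b (-0.943), Aldh7a1 (-0.942), Mtmr4 (-0.941) and Col9a2 (-0.939). After group means were subtracted, Zc3h12a (0.952), Itgam (0.950), Egln3, Ly96 and Ppm1j were again among the top 6, with Acer3 in place of Tnip3, and the 6 lowest were the same genes. Zc3h12a was 6.45 log2 CPM in SHAM 3, 7.64 in HG+ORG 21 and 2.11 in HG 14. Psip1 was 4.57, 4.61 and 7.30 in those horns.

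The nearest features of the other members were different. Ass1 lay closest to Mvd (0.950), an enzyme of cholesterol synthesis, Pmepa1 (0.949) and Slc45a3 (0.939). Sat1 lay closest to Cyp2s1 (0.953), Arrdc4 (0.939) and Tcf25 (0.938), which gave 0.776, 0.848 and 0.816 without SHAM 3 and HG+ORG 21. Odc1 lay closest to Pwp2 (0.923), a factor of ribosome assembly, Fam98b (0.912) and Mtap (0.912), the enzyme that salvages the methylthioadenosine released by Srm and Sms. The r of Mtap with Odc1 was 0.840 without SHAM 3 and HG+ORG 21. Srm lay closest to Bccip (0.926), Rexo2 (0.921) and Adk (0.903), and Arg2 to Tgfbi (0.861), Sox11 (0.844) and Rdm1 (0.843). For Amd1 the nearest were Slc35e1 (0.763), Hnrnpk (0.750) and Ccdc127 (0.742), and for Sms Zranb3 (0.719), Patl1 (0.717) and Bcl7c (0.711), none of which passed.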

How the data were processed

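The authors deposited raw read counts per gene for 23 libraries. The submitters' processing notes name Trimmomatic 0.39, HISAT2 2.2.1, SAMtools 1.21, featureCounts 2.0.3 and build GRCm39. No source used here gives settings, annotation release or the strand setting. All 18682 features have at least 10 counts in at least 3 libraries, and 18341 were matched to a symbol. Here edgeR 4.0.16 was run with TMM factors, filterByExpr (974 features removed) and 1 quasi-likelihood fit of all 4 groups, with Benjamini-Hochberg adjustment. A standard error is the log2 fold over the square root of F. Levels are log2 CPM with a prior count of 2. Exon lengths came from an annotation of another build. Correlations used permutations of horns. The members, lists and tests were chosen with earlier results of these data known. Named genes are the members, the fixed lists, Lyz2, Krt8 and the nearest features by r with a mean of at least 1 CPM. Alternatives were RLE factors, no filter, DESeq2 1.42.0, limma 3.58.1, fits of 2 groups, SHAM 5 and 6 averaged, each horn left out, Spearman, a prior count of 0.5 and group-centred values. The fit and the correlations were run on simulated data with planted changes. A recovery was required of the fit only at a spread set low, and the genes simulated for the correlations were drawn independently apart from the planted relation. How many changes the fit finds at the spread of these horns is not given here.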

Additional observations from a re-analysis of the deposited data

Results flagged for a closer look

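Among 32 sets of a member in a group, 6 had a horn far from the others of its group, at a level at which chance gives about 1 in 20. SHAM 3 did so for 3 genes: Sat1 was 11.305 log2 CPM there against 7.59 to 8.49 in the other SHAM horns, Odc1 was 5.081 against 6.49 to 6.68, and Sms was 4.272 against 4.89 to 5.16. Arg2 was 1.324 in SHAM 4, below 2.98 to 3.66 in the other SHAM horns. Odc1 was 5.375 in HG 14, below 6.17 to 6.61 in the other HG horns, and Sat1 was 8.584 in PBS 11, above 7.84 to 8.02 in the other PBS horns.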

How the results depend on the processing

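No paired analysis was possible because the labels do not say which horns came from the same animal. DESeq2 called 1 feature in PBS against SHAM, 163 in HG+ORG against HG and 5 in injured horns against SHAM, against 0 in edgeR, where leaving out 1 horn gave 0 to 1 in HG+ORG against HG and 0 elsewhere, and the cause was not tested. No alternative made a member pass. The correlation of Arg1 with Lyz2 was -0.1671 without the 2 horns farthest from the marker's median and 0.0443 to 0.4126 with each horn left out. That with Krt8 was 0.4991 without its 2 farthest horns, -0.0746 without SHAM 3 and HG+ORG 21, and 0.0346 to 0.6184 with each horn left out. That of Sat1 with Odc1 was 0.1833 without SHAM 3 and HG+ORG 21 and -0.7218 to -0.3766 with each horn left out. Leaving out SHAM 3 with HG+ORG 21, and the list counts without HG+ORG 18, were chosen after seeing the data. Fold signs changed in 4 of 232 results under other settings: limma-voom gave -0.2015 for Arg2 in HG against PBS, -0.0171 for Amd1 in HG+ORG against PBS and 0.1655 for Ass1 in HG+ORG against HG, and a fit of 2 groups gave -0.001 for Amd1 in HG+ORG against PBS. Leaving out 1 horn changed the sign in 30 of 920. The ranges in HG against PBS were -0.2051 to 0.4061 for Arg2, -0.0839 to 1.1625 for Ass1 and -0.0891 to 0.1627 for Odc1. The ranges in HG+ORG against HG were -0.7595 to 0.3292 for Ass1 and -0.0999 to 0.2051 for Odc1. The ranges in HG+ORG against PBS were -0.1709 to 0.1038 for Amd1, -0.1641 to 0.8223 for Ass1, -0.0668 to 0.2528 for Odc1 and -0.1044 to 0.6083 for Srm. The ranges in PBS against SHAM were -0.1401 to 0.3272 for Arg2 and -1.4426 to 0.0346 for Sat1. The ranges in injured against SHAM were -2.8575 to 0.7482 for Arg1, -1.0476 to 0.0574 for Ass1, -1.0873 to 0.5633 for Sat1 and -0.0744 to 0.0856 for Sms. The standard error of the Arg1 fold was 1.11 to 1.73 over the comparisons, and its lowest library held 12 counts, so the low end of its range is also imprecise from counting.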
